A study of Mus musculus and Homo sapiens with 28 samples.

Results

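The mouse genome was divided into bins of 10 Mb, and the median expression of the well-expressed genes of each bin was followed in 24 libraries of Renca tumours. Bins were selected on gene content alone: genes with a mean of at least 8 over the 24 libraries were placed by their start position (GENCODE vM21, build GRCm38) on chromosomes 1 to 19, and bins with 10 or more such genes were kept. This left 224 of 254 bins, holding 9333 genes, with a median of 32.0 genes per bin and a range of 10 to 145. The value of a bin in a library is the median, over its genes, of the library's level minus the mean of the gene's 4 group means. Levels are regularised log2 values (rlog), so a bin value of -0.10 means that the middle gene of the bin lay 0.10 below its own reference on a log2 scale. Chromosomes 6, 8, 10, 12 and 15 are described first because earlier results of the same libraries pointed to them. Their VE822-minus-untreated values are therefore given as a description, without a p-value, and support nothing by themselves. The same holds for counts of called bins and genes on these chromosomes, which only describe how large the differences were relative to their spread.

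Renca is a mouse renal carcinoma cell line. The cells were injected in 100 µL Matrigel under the skin of the back, so the tumour RNA also holds RNA of mouse stroma and blood, whereas the source label of the libraries reads kidney. The libraries fall into 4 groups: cells labelled WT without treatment (n = 7), WT with VE822 (n = 6), SETD2 KD without treatment (n = 6) and SETD2 KD with VE822 (n = 5). VE822 is an inhibitor of ATR, a kinase of the replication stress checkpoint, and was given by oral gavage at 60 mg/kg on 5 consecutive days per week once tumours had reached about 100 mm3; SETD2 is a histone H3 lysine methyltransferase often lost in kidney cancer. The labels give neither the method of the knockdown nor whether each library is a separate animal, so p-values measure the spread between libraries, which may be technical.

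In tumour cell lines, gains and losses of whole chromosomes or long segments shift the RNA of many neighbouring genes at once, and such shifts can be looked for in expression data as runs of adjacent bins that move together. Neighbouring genes can also move together for other reasons, such as clusters of genes that belong to 1 cell type. The bin value is a relative RNA level, and DNA was not analysed here. In bulk tumours, fewer cells of a type and less RNA per cell cannot be told apart.

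The depth behind the deposited values is unknown, since rlog values keep no counts. Setd2 (chromosome 9, 110532597 to 110618633) had nearly the same level in the untreated libraries of both labels, with a mean of 10.8 (SD 0.0723, n = 7) for WT and 10.8 (SD 0.0663, n = 6) for SETD2 KD. It was lower with VE822, at 10.0 (SD 0.286, n = 6) for WT and 9.72 (SD 0.209, n = 5) for SETD2 KD. The level thus went with the treatment, and the labels were nearly alike without it. With VE822 the mean was lower in SETD2 KD, and the ranges overlapped (9.58 to 10.28 for WT, 9.42 to 9.96 for SETD2 KD). Libraries are named below by their labels. All 10 genes of a list of renal epithelial and Renca tumour cell markers (Pax8, Epcam, Krt8 and others) were measured, and the mean over the list was 10.4 to 10.6, 10.3 to 10.6, 10.5 to 10.6 and 9.99 to 10.6 rlog in the 4 groups in the order given above. A list of 10 skeletal muscle genes reached 6.44 or more in 4 libraries (3 of WT VE822, 1 of WT untreated) and at most 5.24 in the others. Libraries SETD2 KD VE822 4 and WT untreated 1 stood apart in many bins, and values resting on them are also given without both.

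In WT tumours, bins moved down more often than up with VE822. Of 224 bins, 98 (43.8%) were lower and 27 (12.1%) higher in limma with an adjusted p-value of at most 0.05, and the differences ranged from -0.36 to 0.20 with a median of -0.04. The WT groups did not overlap in 55 of the lower bins (24.6% of all bins) and in 15 of the higher ones (6.70%). In SETD2 KD tumours, 33 bins (14.7%) were lower and 5 (2.23%) higher, from -0.26 to 0.11 with a median of -0.02, and groups did not overlap in 16 bins for lower (7.14%) and 3 for higher (1.34%) values. The excess of lower over higher bins depends on the scaling of the libraries: with the median of each library set to 0, the split became 55 higher and 55 lower in WT and 24 higher and 23 lower in SETD2 KD, and after adjustment for transcript GC content and length it became 55 against 59 and 32 against 29. Without SETD2 KD VE822 4, 77 bins were called in SETD2 KD in place of 38, and without both libraries that stood apart 78. With the list means of muscle, T cell, macrophage and fibroblast genes as covariates, 36 bins were called in WT and 21 in SETD2 KD. Of these, chromosome 8 held 10 and 9, chromosome 10 held 9 and 4, chromosome 12 held 3 and 0, chromosome 15 held 2 and 3, and chromosome 6 held 1 and 0. The other 14 chromosomes, with 167 bins, held 74 called bins in WT without covariates and 11 with them. Their median bin difference in WT went from -0.0301 to -0.0265. On chromosomes 6, 8, 10, 12 and 15 the WT medians were 0.14, -0.12, -0.26, -0.12 and -0.07. With covariates they were 0.09, -0.16, -0.20, -0.09 and -0.08. In SETD2 KD they were 0.05, -0.11, -0.16, -0.03 and -0.10 without and 0.02, -0.18, -0.14, -0.0005 and -0.10 with covariates. The T cell list, a covariate, itself had the higher mean with VE822 under both labels.

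**Figure D1:**
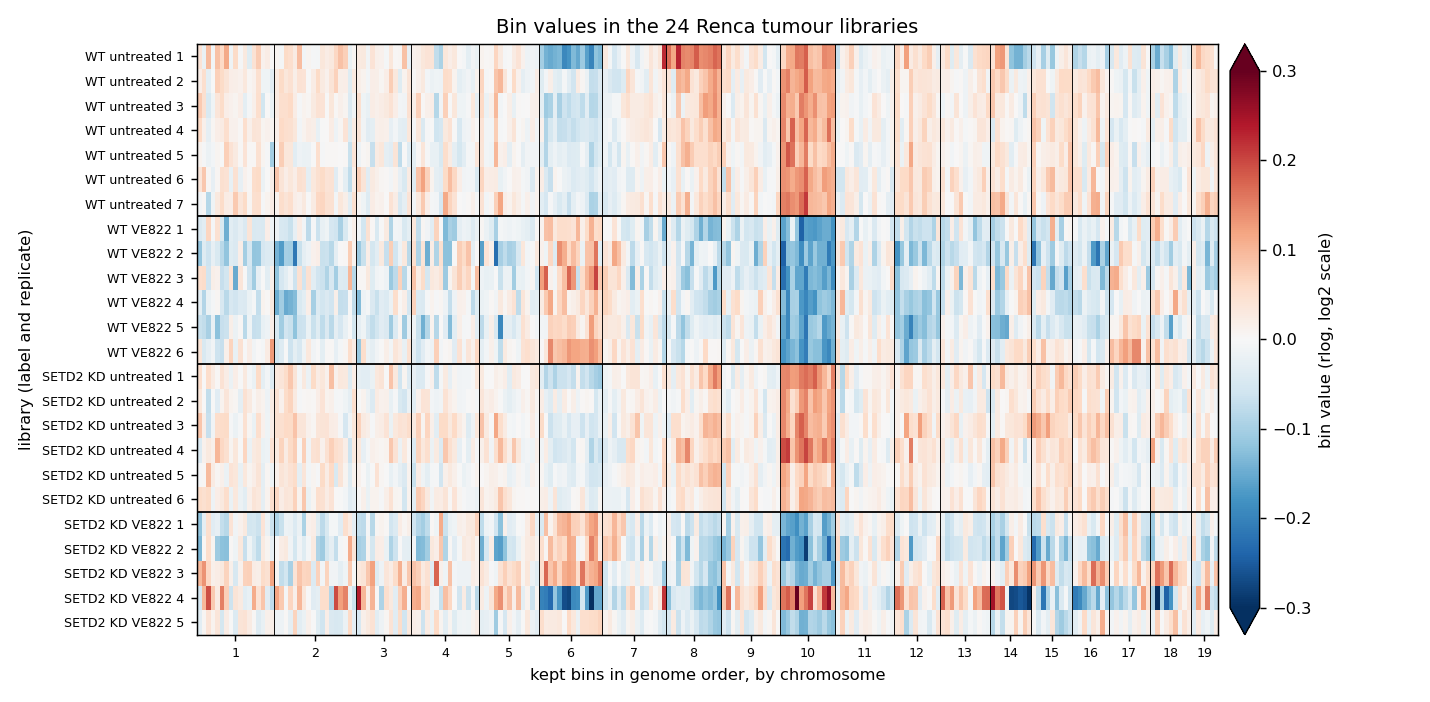
Bin values (colour, log2 scale) in all 24 libraries (rows, by group) along the 224 kept bins in chromosome order (columns, chromosomes 1 to 19 separated by lines). Chromosome 10 changes sign between untreated and VE822 libraries except in SETD2 KD VE822 4, and the last 5 bins of chromosome 14 are low in SETD2 KD VE822 4 and WT untreated 1.

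The differences lay in long stretches of the genome. Chromosome membership accounted for 72.6% of the variance over bins of the WT difference and 66.2% of the SETD2 KD difference, against 37.1% for SETD2 KD minus WT in untreated tumours and 53.5% under VE822. In single libraries the share was 38.9% to 68.7%. Runs of 3 or more adjacent kept bins called in 1 direction numbered 11 for lower (63 bins) and 2 for higher values (14 bins) in WT, and 4 for lower values (20 bins) in SETD2 KD. The longest WT runs covered chromosome 10 from 0 to 130 Mb (12 bins), chromosome 8 from 20 to 130 Mb (10 bins), chromosome 12 from 0 to 120 Mb (10 bins) and, as the longest higher run, chromosome 6 from 40 to 150 Mb (10 bins). The SETD2 KD runs were chromosome 8 from 80 to 130 Mb, chromosome 10 from 0 to 30 and from 40 to 130 Mb, and chromosome 15 from 70 to 110 Mb. At the threshold of gene content, the 6 kept bins with 10 or 11 genes had WT differences of -0.10 to 0.08, and the 11 bins left out with 8 or 9 genes had -0.16 to 0.14. Bins with more genes had smaller errors: the median standard error of the WT difference was 0.03 for bins of 10 to 19 genes and 0.02 for those of 50 or more.

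**Figure D2:**
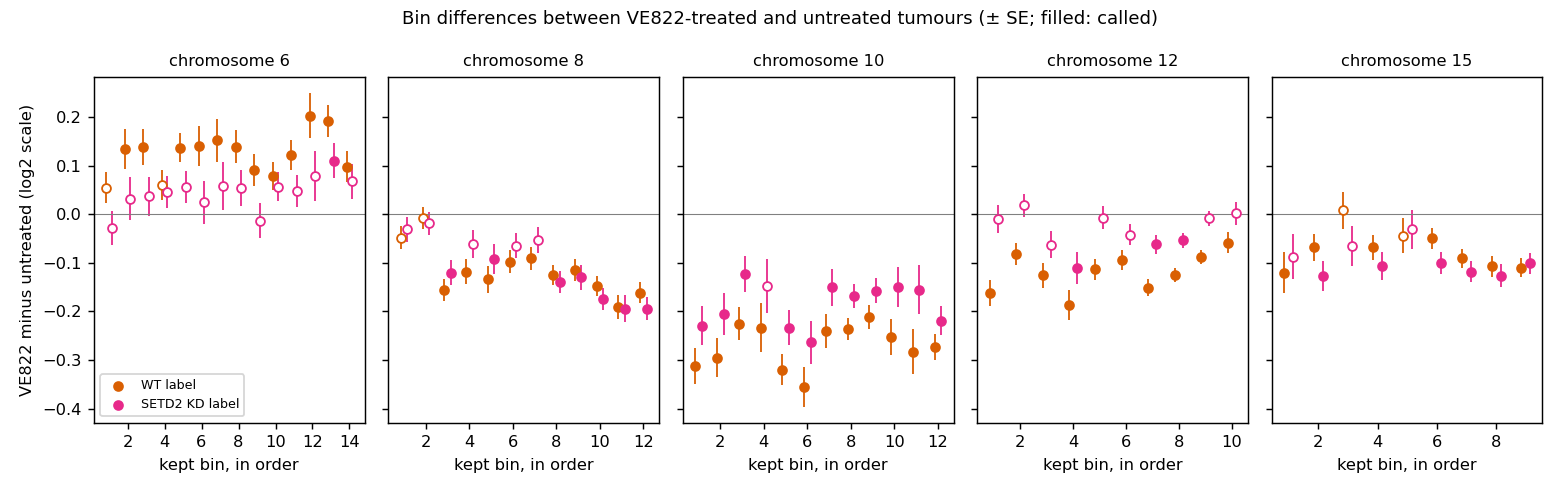
Difference VE822 minus untreated (log2, vertical axis) of each kept bin of chromosomes 6, 8, 10, 12 and 15 in order along the chromosome (horizontal axis), for WT and SETD2 KD. Bars are standard errors from limma. Filled points passed the adjusted threshold, which is only a description here, since earlier results of the same libraries pointed to these chromosomes. All 12 bins of chromosome 10 lie below 0 in both labels (-0.36 to -0.21 in WT), and all 14 bins of chromosome 6 lie above 0 in WT.

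Chromosome 10 had the strongest shift. The median over its 470 genes was 0.10, 0.11 and 0.12 (lowest, median, highest) in WT untreated and -0.16, -0.15 and -0.13 in WT VE822 libraries, a difference of -0.26. The untreated libraries were thus all high and the treated ones all low, with a standard deviation of 0.007 (n = 7) and 0.012 (n = 6) within the groups. In SETD2 KD, untreated libraries had 0.08, 0.12 and 0.15, and the 5 VE822 libraries had -0.12, -0.14, -0.13, 0.13 and -0.10. Of these treated libraries the 4th alone lay within the untreated range, so the groups overlapped through SETD2 KD VE822 4, and the difference of -0.19 became -0.24 without the pair of libraries that stood apart. All 12 bins were called lower in WT, each with groups that did not overlap, and 11 of 12 in SETD2 KD. With the library median set to 0, 12 and 9 were called, and with the list covariates 9 and 4, all lower. The bin from 50 to 60 Mb had the lowest difference in both labels, -0.36 ± 0.04 (SE) and -0.26 ± 0.04, and the smallest difference in WT was -0.21 (80 to 90 Mb).

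The shift on chromosome 10 was spread over most of its genes. In the gene-wise limma fit, 318 of the 470 genes were lower and 17 higher in WT, where 17.5% of the 15916 genes tested were lower and 17.2% higher. In SETD2 KD, 221 were lower and 10 higher, against 11.6% and 10.6% of all genes tested. Of the 470 genes, 89.4% lay below 0 in WT and 86.4% in SETD2 KD. The genes with the largest change in WT were Avil (127000709 to 127020994, an actin-binding protein), Akap12 (4266380 to 4359470, a scaffold of protein kinase A) and Ptprk (28074820 to 28597397, a receptor tyrosine phosphatase). Ptprk lay at 12.11 to 12.37 rlog in WT untreated and 11.04 to 11.29 in WT VE822 libraries, so that the groups were far apart, with a difference of -1.04 ± 0.08 (SE). In SETD2 KD it lay at 12.03 to 12.34 untreated and 11.23 to 11.37 in 4 of the VE822 libraries, and at 11.92 in SETD2 KD VE822 4, between the groups. Akap12 differed by -1.08 in WT and -0.90 in SETD2 KD, and Avil by -1.18 and -1.57.

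Genes with a known role in cancer were listed for each chromosome to describe what the bins hold. Counts of them stand beside the shares over all genes tested: 17.5% lower and 17.2% higher in WT, 11.6% and 10.6% in SETD2 KD. Of 17 such genes measured on chromosome 10, 14 were lower and 0 higher in WT, and 11 lower and 0 higher in SETD2 KD. Stk11 (80115803 to 80130682), which encodes the kinase LKB1 that activates AMPK, had 11.37 to 11.65 rlog in WT untreated and 10.85 to 11.16 in WT VE822 libraries, without overlap. Its difference was -0.45 ± 0.08 (SE) in WT and -0.26 ± 0.09 in SETD2 KD, where SETD2 KD VE822 4 had 11.73 and the other treated libraries 10.97 to 11.12. Cdk2 (128697939 to 128705031), a cell cycle kinase, fell by 0.35 in WT and by 0.24 in SETD2 KD, with 10.74 in SETD2 KD VE822 4 against 10.30 to 10.42 in the other treated libraries. For both genes this library was as high as, or above, the untreated libraries of its label. Sesn1, a stress-induced regulator of mTORC1, fell by 0.68 in WT and by 0.63 in SETD2 KD, and Btg1, an antiproliferative factor, fell by 0.62 and by 0.39. Erbb3, a receptor of the EGFR family, fell by 0.52 and by 0.42, and Stat6, which acts downstream of interleukin 4, by 0.39 and by 0.24. The size of the shift was not uniform: Cdk4 fell by 0.15 and by 0.17, and Fyn, a Src family kinase, had positive differences of 0.30 and 0.34 that did not pass. Of the 3 most abundant genes, Eef2 (translation elongation) fell by 0.34 in WT and by 0.20 in SETD2 KD. Psap, a lysosomal saposin precursor, and Lyz2, the lysozyme of macrophages and neutrophils, had differences of -0.20 and -0.05 in WT that did not pass.

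**Figure D3:**
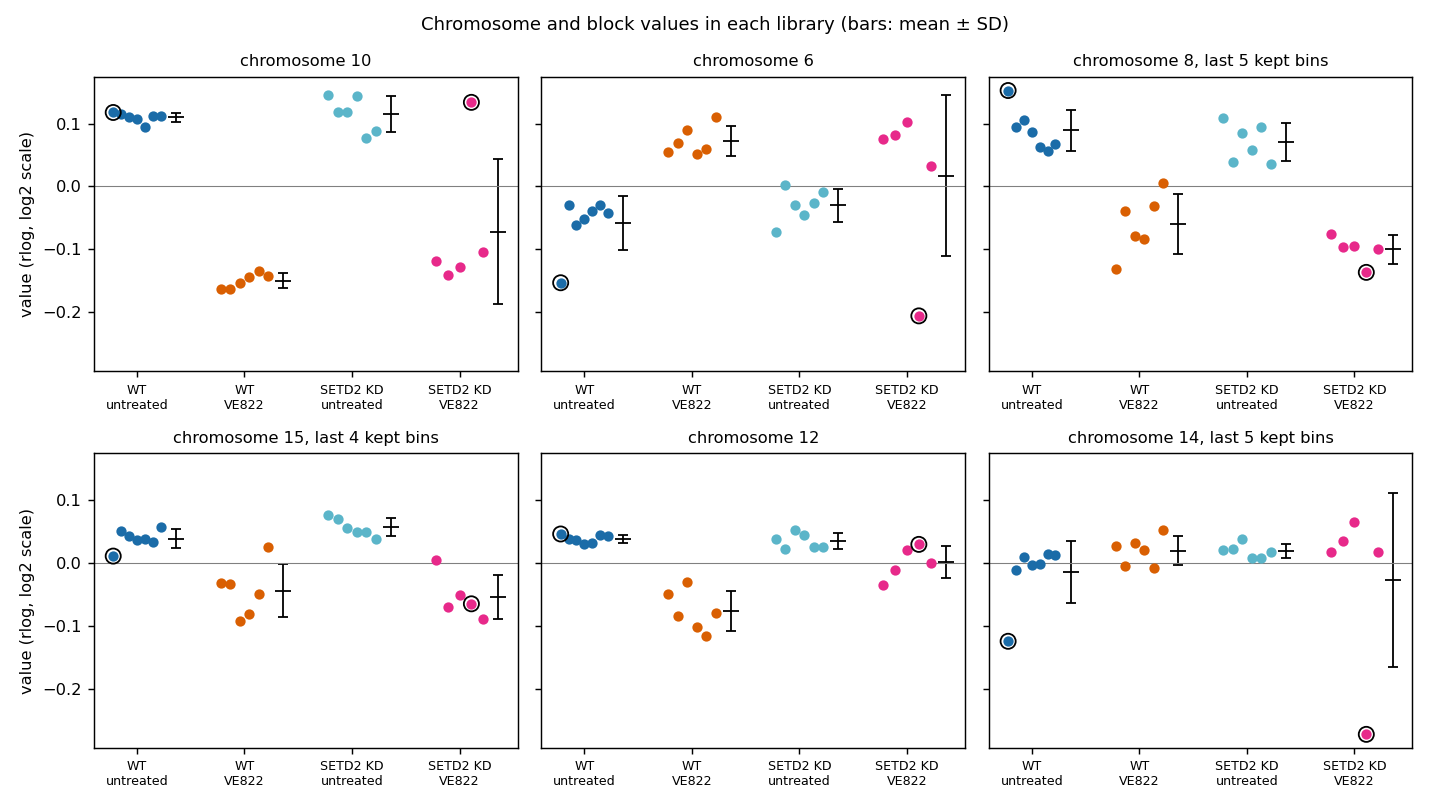
Value (log2, vertical axis) of 6 chromosomes or chromosome parts in each library (points) of the 4 groups (horizontal axis), with the group mean ± SD as bars; SETD2 KD VE822 4 and WT untreated 1 are circled. On chromosome 10 SETD2 KD VE822 4 has 0.13 among treated libraries at -0.14 to -0.10.

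Chromosome 6 moved the other way in WT. The median over its 465 genes was -0.15, -0.04 and -0.03 (lowest, median, highest) in WT untreated and 0.05, 0.06 and 0.11 in WT VE822 libraries, a difference of 0.13. The groups did not overlap, and WT untreated 1 was the lowest. In SETD2 KD it was -0.07, -0.03 and 0.00 without treatment, and 0.08, 0.08, 0.10, -0.21 and 0.03 in the 5 VE822 libraries. Here 4 treated libraries lay above every untreated one and SETD2 KD VE822 4 lay below all of them, and the difference of 0.05 became 0.10 without the pair that stood apart. Of the 14 bins, 12 were called higher in WT and 1 in SETD2 KD (130 to 140 Mb, 0.11 ± 0.04 SE), and the highest in WT was 120 to 130 Mb with 0.20 ± 0.05 (SE). Without the pair that stood apart, 12 and 11 of the 14 were called higher, and with the list covariates 1 and 0. By gene, 179 were higher and 26 lower in WT, and 64 higher and 27 lower in SETD2 KD. Of all genes tested, 17.2% were higher and 17.5% lower in WT, and 10.6% and 11.6% in SETD2 KD.

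The largest changes on chromosome 6 were in single genes that went well beyond the chromosome's median. Slc2a3 (122727809 to 122801640), the glucose transporter GLUT3, had 8.93 to 10.44 rlog in WT untreated and 10.94 to 12.06 in WT VE822 libraries, without overlap, a difference of 1.92 ± 0.41 (SE). Its SETD2 KD difference was 1.47 ± 0.44, with 9.68 to 10.33 untreated, 11.97 to 12.35 in 4 treated libraries and 8.70, below all untreated ones, in SETD2 KD VE822 4. Gpnmb (49036546 to 49070929), a glycoprotein of macrophages and some tumours, rose by 0.88 in WT and 0.80 in SETD2 KD. Col1a2, a fibroblast collagen that is itself in the fibroblast marker list, rose by 1.34 in WT, while its SETD2 KD difference of 0.91 did not pass. Of 12 cancer genes measured, Met, the receptor of hepatocyte growth factor, rose in both labels (1.14 ± 0.13 and 0.99 ± 0.15 SE), with 9.83 in SETD2 KD VE822 4 against 10.62 to 10.88 in the other treated libraries of its label. Kdm5a, a histone demethylase, fell by 0.20 in WT and by 0.19 in SETD2 KD, and Vhl, the von Hippel-Lindau tumour suppressor, fell by 0.24 in SETD2 KD. No other gene of this list passed in either label. The most abundant genes, Gapdh and Tpi1 of glycolysis, had WT differences of 0.02 and 0.11 that did not pass.

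Chromosome 8 was lower with VE822 under both labels, and its distal part taken as a whole had the larger differences. The border at 80 Mb, like those used on chromosomes 14, 15 and 18, was set after the values were seen. From 80 Mb on (5 bins, 301 genes), WT untreated libraries had 0.06, 0.09 and 0.15 and WT VE822 libraries -0.13, -0.06 and 0.01 (lowest, median, highest), a difference of -0.15. SETD2 KD untreated libraries had 0.04, 0.07 and 0.11, and the VE822 libraries -0.07, -0.10, -0.09, -0.14 and -0.10, a difference of -0.17. Groups did not overlap under either label, and here SETD2 KD VE822 4 was the lowest of the treated libraries. Below 80 Mb (7 bins, 243 genes) the differences were smaller, at -0.10 and -0.06, and WT untreated 1 lay at 0.17 among untreated WT libraries at 0.01 to 0.05. Not every WT bin followed this division, with -0.16 from 20 to 30 Mb and -0.12 from 80 to 90 Mb. Of all 12 bins, 10 were called lower in WT and 7 in SETD2 KD, and with the list covariates 10 and 9. Of 544 genes, 235 were lower and 29 higher in WT and 177 lower and 18 higher in SETD2 KD. The shares over all genes tested were 17.5% lower and 17.2% higher in WT, and 11.6% and 10.6% in SETD2 KD. The largest changes were those of Ces2g (104961718 to 104969537, a carboxylesterase) and Irx3 (91798525 to 91802067, a homeobox factor). Ces2g had 9.76 to 10.18 rlog in WT untreated and 8.05 to 8.81 in WT VE822 libraries, without overlap, and changed by -1.59 in WT and -1.80 in SETD2 KD. Irx3 changed by -1.17 and -1.26. Of 13 cancer genes, 9 were lower in WT and 2 in SETD2 KD, and none rose. Cdh1 (E-cadherin, also in the renal list) fell by 0.38 in WT and by 0.67 in SETD2 KD, with 11.29 in SETD2 KD VE822 4 against 12.37 to 12.43 in the other treated libraries. Fgfr1, a fibroblast growth factor receptor, fell by 0.33, and Junb and Jund, subunits of AP-1, by 0.28 and by 0.26, in WT. Of the 3 most abundant genes, Itgb1, the integrin beta 1 subunit, fell by 0.30 in WT and by 0.15 in SETD2 KD, while Lamp1 of the lysosome and Calr, a chaperone of the endoplasmic reticulum, had differences of 0.05 to 0.15 that did not pass.

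Chromosome 12 held 6 of the 10 bins called between the labels under treatment. The median of its bin differences between the labels, 0.08, was no larger than that of chromosome 10 (0.08, no bin called); without the pair that stood apart the medians were 0.07 and 0.02. The median over its 308 genes was 0.03, 0.04 and 0.05 in WT untreated and -0.12, -0.08 and -0.03 in WT VE822 libraries (lowest, median, highest), a difference of -0.12 without overlap. In SETD2 KD it was 0.02, 0.03 and 0.05 untreated and -0.03, -0.01, 0.02, 0.03 and 0.00 in the VE822 libraries, a difference of -0.03. Here 1 treated library lay within the untreated range and 4 below it. All 10 bins were called lower in WT and 3 in SETD2 KD. With the list covariates the counts were 3 and 0, with the library median set to 0 they were 8 and 0, and after adjustment for transcript GC content and length 8 and 1, so the SETD2 KD calls rest on the scaling. The interaction of label and treatment was called in none of these bins. By gene, 117 of the 308 were lower and 18 higher in WT, and 48 lower and 25 higher in SETD2 KD. Of all genes tested, 17.5% were lower and 17.2% higher in WT, and 11.6% and 10.6% in SETD2 KD. Six4, a homeobox factor of kidney development, fell by 0.73 in WT and by 0.60 in SETD2 KD, and Plekhh1 fell by 0.72 and by 0.78. Cys1, which encodes cystin of the primary cilium, had 10.09 to 11.11 rlog in WT untreated and 9.63 to 10.36 in WT VE822 libraries, with some overlap; it fell by 0.73 in WT, and its SETD2 KD difference of -0.22 did not pass. Of 13 cancer genes, 4 were lower and 1 higher in WT, and 2 lower and 2 higher in SETD2 KD. Hif1a, the oxygen-regulated transcription factor, fell by 0.32 and by 0.20, and Id2, a helix-loop-helix inhibitor, rose by 0.45 and 0.33. Dnmt3a, a DNA methyltransferase, rose by 0.36 in SETD2 KD and had a difference of 0.06 in WT that did not pass.

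Chromosome 15 was lower with VE822 in both of its parts. Below 70 Mb (5 bins, 105 genes) the differences were -0.06 in WT and -0.09 in SETD2 KD, and groups overlapped under both labels. From 70 Mb on (4 bins, 301 genes), WT untreated libraries had 0.01, 0.04 and 0.06 and WT VE822 libraries -0.09, -0.04 and 0.03 (lowest, median, highest), a difference of -0.08. SETD2 KD untreated libraries had 0.04, 0.05 and 0.08 and the VE822 libraries 0.00, -0.07, -0.05, -0.07 and -0.09, a difference of -0.11. The groups overlapped in WT, where WT VE822 6 lay at 0.03, and did not in SETD2 KD. Over the whole chromosome 7 of 9 bins were called lower in WT and 6 in SETD2 KD. With the library median set to 0 the counts were 3 and 6, and with the list covariates 2 and 3. Of 406 genes, 125 were lower and 44 higher in WT and 131 lower and 23 higher in SETD2 KD. The shares over all genes tested were 17.5% lower and 17.2% higher in WT, and 11.6% and 10.6% in SETD2 KD. Krt18 (102028180 to 102032027), a keratin of simple epithelia that is also in the renal list, had 14.37 to 14.55 rlog in WT untreated and 13.41 to 13.72 in WT VE822 libraries, without overlap. It fell by 0.84 in WT and by 0.91 in SETD2 KD. Aqp5, a water channel, fell by 0.86 and by 0.79, and Amacr, a racemase of branched fatty acid oxidation, by 0.78 and by 0.99. Of 13 cancer genes, 4 were lower in WT and 3 in SETD2 KD, and none rose. Myc (61985391 to 61990374) had 11.63 to 12.11 rlog in WT untreated and 11.12 to 11.70 in WT VE822 libraries, ranges that overlap slightly. It fell by 0.55 in WT and by 0.32 in SETD2 KD. Ndrg1, a stress and hypoxia responsive gene among the 3 most abundant of the chromosome, fell by 0.49 and by 0.57.

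On the other 14 chromosomes, 34 cancer genes were measured, of which 11 were lower and 2 higher in WT and 4 lower and 5 higher in SETD2 KD. Of all genes tested, 17.5% were lower and 17.2% higher in WT, and 11.6% and 10.6% in SETD2 KD. The median bin difference there was -0.03 in WT and -0.02 in SETD2 KD, but some segments moved as much as some of the first 5 chromosomes. In WT, chromosome 14 below 50 Mb had -0.13, against -0.12 for chromosome 12 and -0.07 for chromosome 15. In SETD2 KD, chromosome 16 had -0.07, against -0.03 for chromosome 12. Chromosome 2 below 60 Mb (5 bins, 257 genes) lay at 0.03 to 0.05 in WT untreated and -0.14 to -0.04 in WT VE822 libraries, without overlap, a difference of -0.12, and had a difference of -0.07 in SETD2 KD. Its 5 bins were called in WT (for 30 to 40 Mb, -0.12 ± 0.02 SE, limma adjusted p = 2.5e-05), and 1 of them in SETD2 KD (30 to 40 Mb, -0.07 ± 0.02, limma adjusted p = 0.0199). This segment and those of chromosomes 7 and 19 below are runs joined because their bins were called in WT. Their separation of the WT groups is thus a description and adds no support. On chromosome 14, the bin from 20 to 30 Mb had the smallest p outside the first 5 chromosomes in WT (-0.16 ± 0.03 SE, limma adjusted p = 2.3e-05). Chromosome 19 from 10 to 60 Mb was lower in WT, at 0.02 to 0.07 in untreated and -0.08 to -0.01 in treated libraries, without overlap, and none of its bins was called in SETD2 KD, where limma called 38 bins in all, 66 had an unadjusted p under 0.05 and the exact permutation test called 20. The first 4 bins of chromosome 7 (0 to 40 Mb) were higher in WT, at -0.05 to -0.01 untreated and 0.01 to 0.05 treated. Chromosome 17, where the major histocompatibility complex lies, had a median difference of 0.06 in WT with 4 of 9 bins called higher, among them 30 to 40 Mb (0.09 ± 0.02 SE, limma adjusted p = 0.00128). Called in both labels outside the first 5 chromosomes were, as the bins with the smallest adjusted p in SETD2 KD, chromosome 2 from 130 to 140 Mb (-0.08 in both, limma adjusted p = 0.000244 in WT and 0.0011 in SETD2 KD) and chromosome 16 from 30 to 40 Mb (-0.08 and -0.10, with limma adjusted p = 0.00234 in SETD2 KD).

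Without treatment, the labels SETD2 KD and WT were not told apart in any bin on well-expressed genes (genes of lower level are given further below). The differences ranged from -0.07 to 0.06, limma called 0 of 224 bins (0%) with a smallest adjusted p of 0.966, 2 bins had an unadjusted p under 0.05 and the exact permutation test over libraries called 0. Under VE822, 10 bins (4.46%) were higher in SETD2 KD and 0 lower by limma, while the exact permutation test called 0. Of these bins 6 lie on chromosome 12, led by 10 to 20 Mb (0.13 ± 0.02 SE, limma adjusted p = 0.00546) and 0 to 10 Mb (0.13 ± 0.03, limma adjusted p = 0.0146). The others were chromosome 2 from 50 to 60 Mb, chromosome 4 from 90 to 100 Mb, chromosome 14 from 20 to 30 Mb and chromosome 16 from 80 to 90 Mb. From 70 to 110 Mb of chromosome 12 the WT VE822 libraries lay at -0.11 to -0.06 and the SETD2 KD VE822 libraries at -0.05, -0.01, 0.00, 0.01 and -0.02, so the groups did not overlap. This run was joined from bins called in the same comparison, so its separation adds no support. Of the 224 single bins, 1 had groups that did not overlap (chromosome 12 from 100 to 110 Mb). This comparison shares the WT VE822 libraries with the one of VE822 within WT. The interaction of label and treatment was called in 0 bins (0%; smallest adjusted p = 0.089 in limma, 25 bins with an unadjusted p under 0.05; the exact permutation test was not run on it), with 2 of the 3 smallest p-values on chromosome 12. The count of 10 bins rests on single libraries and on the fit: leaving out WT VE822 5 gave 1 bin, WT VE822 2 or 4 gave 3, SETD2 KD VE822 4 gave 5 and SETD2 KD VE822 2 gave 32, and a fit to the treated groups alone gave 0.

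Libraries SETD2 KD VE822 4 and WT untreated 1 differed from the rest of their groups over long segments. SETD2 KD VE822 4 was the lowest of the 24 libraries in 52 bins and the highest in 52, and it lay outside the range of the 13 untreated libraries in 160 bins, against 110 to 151 for the other VE822 libraries. In 12 runs of 3 or more adjacent kept bins (44 bins) it was the extreme library throughout, 8 times the lowest and 4 times the highest, and in 10 of these 12 runs the next most extreme library was WT untreated 1. WT untreated 1 lay outside the range of the other 12 untreated libraries in 99 bins, against 11 to 52 for each of the others. Over 224 bins, the deviations of this pair from their own group means had a Pearson correlation of 0.52, against -0.55 to 0.44 (median 0.01) over the other 214 pairs of libraries from different groups; outside chromosomes 6, 14, 16 and 18 (184 bins) it was 0.12. The bins share their libraries, and the correlations are given as a description.

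**Figure D4:**
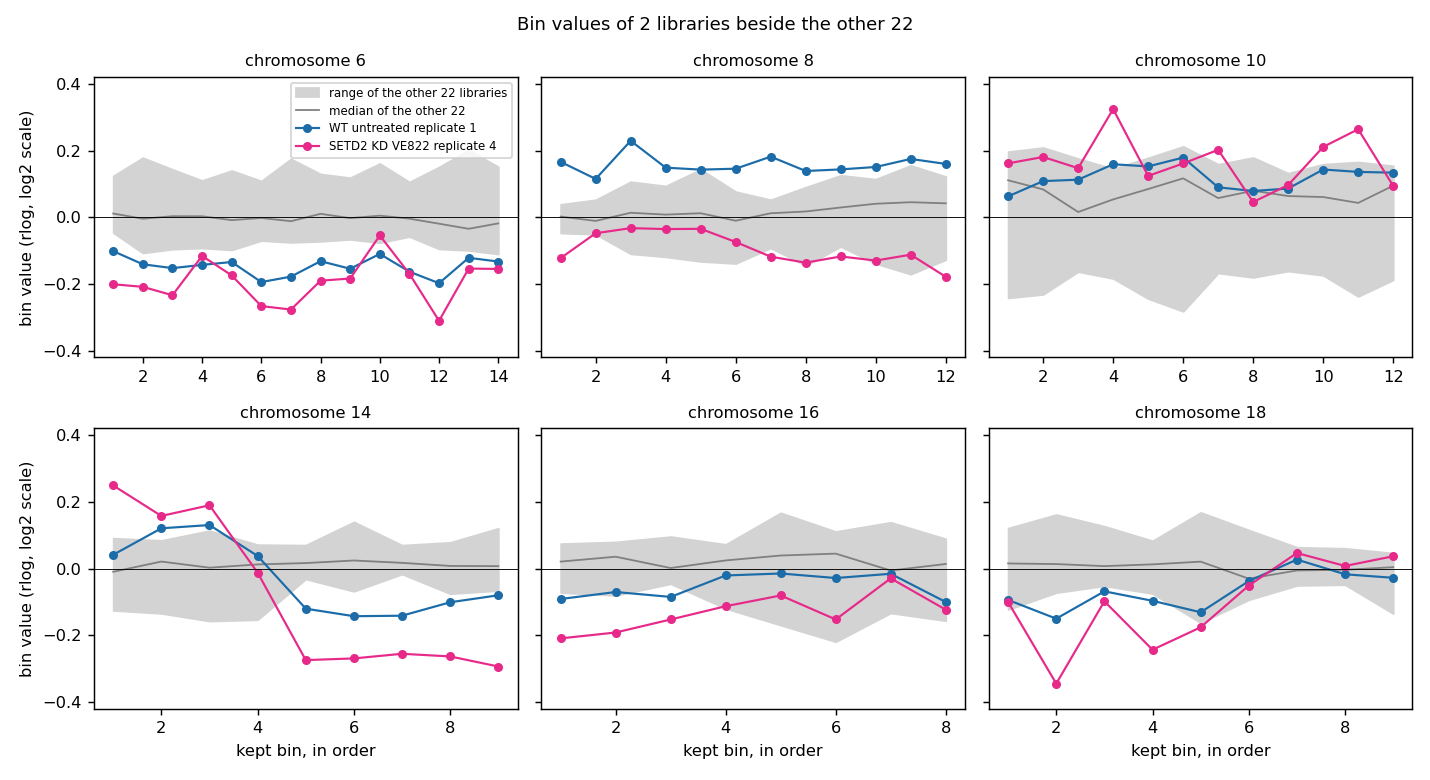
Bin values (log2, vertical axis) along chromosomes 6, 8, 10, 14, 16 and 18 (kept bins in order, horizontal axis) in SETD2 KD VE822 4 and WT untreated 1 as coloured lines, with the range and median of the other 22 libraries in grey. On chromosome 14 from 50 Mb on both lines lie below the grey band in each of the 5 bins.

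Dividing points are given for chromosomes 14, 15, 16 and 18 in SETD2 KD VE822 4 and WT untreated 1 only. Among these, chromosome 14 had the sharpest change. Without values for other chromosomes or libraries, the shares of variance below have no baseline. From 50 Mb on (5 bins, 184 genes) SETD2 KD VE822 4 had -0.27 and WT untreated 1 had -0.12, while the other 22 libraries lay between -0.01 and 0.06. Below 50 Mb (4 bins, 128 genes) the same libraries had 0.16 and 0.11, the highest values of their groups. The point that best divided the chromosome's 312 genes into a high and a low part lay in WT untreated 1 between Samd4 (start 46882854) and Gch1 (start 47153895), with medians of 0.13 before and -0.15 after it. In SETD2 KD VE822 4 it lay between Socs4 (start 47276931) and Mapk1ip1l (start 47298266), with medians of 0.17 and -0.28. The split accounted for 28.5% and 26.9% of the variance over genes, and the 2 points were 3 genes apart in gene order. On chromosome 18 the dividing point was between Dmxl1 (start 49832670) and Tnfaip8 (start 49979427) in both libraries, with medians of -0.13 and 0.00 in WT untreated 1 and -0.23 and 0.04 in SETD2 KD VE822 4. It accounted for less of the variance, 10.7% and 15.3%. On chromosomes 15 and 16 a single dividing point accounted for 2.24% to 3.90%.

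Other segments were shared in part. Chromosome 6 had its lowest values in SETD2 KD VE822 4 and WT untreated 1 (-0.21 and -0.15, the other libraries -0.07 to 0.11), and chromosome 16 had -0.15 and -0.06, the other 22 libraries -0.08 to 0.07. Chromosome 18 below 50 Mb had -0.20 and -0.10, the others -0.07 to 0.10. On chromosomes 8 and 10 they parted. Chromosome 8 below 80 Mb was at 0.17 in WT untreated 1 and -0.06 in SETD2 KD VE822 4. On chromosome 10 SETD2 KD VE822 4 had 0.13, within the range of the untreated libraries, while WT untreated 1 was not apart from its group. High runs of SETD2 KD VE822 4 lay on chromosome 2 from 140 to 170 Mb (0.14) and on chromosome 13 from 0 to 30 Mb (0.13) and from 70 to 120 Mb (0.12), each with WT untreated 1 as the next highest library.

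Markers of other cell types also differed in these libraries. Lists of 10 fibroblast and 8 endothelial genes, all measured, averaged 10.5 and 9.40 rlog in SETD2 KD VE822 4, against 9.05 to 10.2 and 7.49 to 8.18 in the other VE822 libraries of its label. The renal and tumour cell list was lower in it, at 9.99 against 10.4 to 10.6. In WT untreated 1 the fibroblast list was 10.3 against 8.52 to 9.77 and the endothelial list 8.79 against 7.83 to 8.31 in the other libraries of its group, while the renal list (10.4) was within the others' range of 10.4 to 10.6. The macrophage list of 10 genes was 12.3 against 11.91 to 12.04 in SETD2 KD VE822 4, and 12.2 against 11.8 to 12.2 in WT untreated 1. The T cell list of 12 genes was 5.50 in WT untreated 1 against 4.86 to 5.04, and within the others' range in SETD2 KD VE822 4. Lists of 5 red blood cell genes (7.70 against 5.98 to 7.09), 6 neutrophil genes (6.48 against 6.62 to 7.67) and 10 skeletal muscle genes (4.19 against 4.45 to 4.69) also lay outside the others' range in SETD2 KD VE822 4, the first above and the other two below it. In WT untreated 1 a list of 5 adipocyte genes was above (6.95 against 4.38 to 6.71) and the muscle list below (4.29 against 4.40 to 6.44) the range of the other libraries. All genes of these lists were measured. The part of these cell types in the segments was not tested.

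Between treatments, marker lists differed to unlike degrees, and their relation to the bin values was not tested. The T cell list was 4.86 to 5.50 in WT untreated and 5.23 to 6.51 in WT VE822 libraries, and 4.96 to 5.23 and 5.71 to 6.51 in SETD2 KD. The fibroblast list was 8.52 to 10.3 and 9.44 to 11.9 in WT, and 8.66 to 9.86 and 9.05 to 10.5 in SETD2 KD. The macrophage list changed little, with group means of 12.03 and 11.99 in WT and 11.98 and 12.03 in SETD2 KD. So did the renal list, with 10.47 and 10.42 in WT and 10.50 and 10.38 in SETD2 KD. The muscle list had means of 4.77 and 6.11 in WT, but 4.71 and 4.50 in SETD2 KD. Of the marker genes, 34 lie in kept bins. The counts of called bins with the list means as covariates stand beside each chromosome above; beyond that, the part of these cell types in the differences was not tested.

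Genes of lower level gave another view of the same segments. These are genes with a mean rlog of 5 to 8, which do not enter the bin values above. In the kept bins with 10 or more of them (134 bins, 2460 genes), the exact permutation test over libraries called 59 higher (44%) and 5 lower (3.73%) in WT, and 47 higher (35.1%) and 3 lower (2.24%) in SETD2 KD, the opposite balance to that of the well-expressed genes on the deposited scaling. With the library median set to 0, the well-expressed genes had no such balance, and the lower-level genes were not rescaled. The SETD2 KD count of 50 fell to 24 to 29 when any 1 untreated library was left out and to 30 without SETD2 KD VE822 2 or 5, where fewer libraries also leave fewer relabellings. Of the 52 bins called lower in WT on well-expressed genes, 14 lay below 0 and 38 above 0 on the lower-level genes. By chromosome, 15 of 19 (78.9%) were higher and 1 (5.26%) lower in WT, and 15 (78.9%) higher and 0 (0%) lower in SETD2 KD (0 also at an unadjusted p under 0.05), with medians over chromosomes of 0.09 and 0.08. The 1 lower chromosome was chromosome 10, with 134 genes: WT untreated libraries lay at 0.00 to 0.07 and WT VE822 libraries at -0.14 to -0.02, without overlap, a difference of -0.09. In SETD2 KD its difference was -0.03, and -0.08 without the pair that stood apart; the untreated libraries had -0.01 to 0.06 and the treated ones -0.06 to 0.19. Chromosome 8 had the next lowest value under both labels, 0.01 in WT and -0.0046 in SETD2 KD. Chromosome 6 had the second highest value of the 19 in WT, 0.16, and ranked 6th in SETD2 KD with 0.10. Chromosomes 12 and 15, lower on well-expressed genes, were not low on these: chromosome 12 had 0.07 and 0.11 and chromosome 15 had 0.14 and 0.08. Over the 19 chromosomes, which share their libraries, the Spearman correlation between the differences of the gene classes was 0.29 in WT and 0.22 in SETD2 KD, and the Pearson correlation 0.63 and 0.58. Between the labels without treatment, the lower-level genes of SETD2 KD lay below those of WT in 99 of 134 bins and above in 35, with 0 called. By chromosome, the exact permutation test called chromosomes 2, 7, 8, 9 and 11 lower in SETD2 KD. Their differences were -0.045 to -0.031 (adjusted p 0.0221 to 0.0465), and chromosome 16 alone lay above 0 (0.02, not called).

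**Figure D5:**
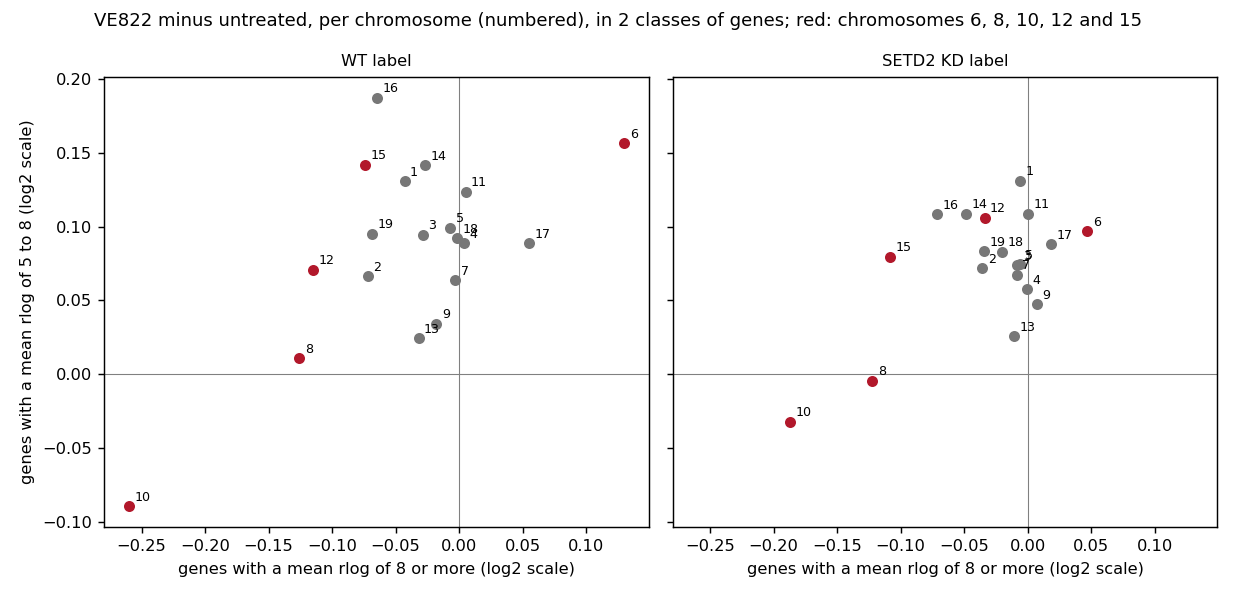
Difference VE822 minus untreated per chromosome (log2) in genes of mean rlog 8 or more (horizontal axis) and 5 to 8 (vertical axis), for WT and SETD2 KD; each point is a chromosome, numbered, with chromosomes 6, 8, 10, 12 and 15 in red. Chromosome 10 lies lowest on both axes (-0.26 and -0.09 in WT), and most other chromosomes lie above 0 on the vertical axis.

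The values of the libraries that stood apart also depended on gene level in many segments. On chromosome 14 from 50 Mb on, SETD2 KD VE822 4 had -0.30 in the 118 genes of mean rlog 10 or more, -0.16 in the 66 genes of 8 to 10 and 0.05 in the 61 genes of 5 to 8, where the other libraries spread from -0.17 to 0.27. WT untreated 1 had -0.13, -0.12 and 0.01 in the same classes. On chromosome 10, SETD2 KD VE822 4 was high in every class, with 0.11, 0.19 and 0.18, and on chromosome 8 below 80 Mb WT untreated 1 had 0.15, 0.18 and 0.17. On chromosome 8 from 80 Mb on, however, WT untreated 1 had 0.15, 0.17 and 0.00. In SETD2 KD VE822 4 the low segments were also nearer to 0 in the lowest class, with -0.21, -0.20 and -0.08 on chromosome 6, -0.15, -0.15 and -0.0031 on chromosome 16, and -0.20, -0.20 and -0.02 on chromosome 18 below 50 Mb. In WT untreated 1 the values were -0.16, -0.14 and -0.05 on chromosome 6, -0.11, -0.05 and -0.04 on chromosome 18 below 50 Mb and, the other way, -0.06, -0.04 and -0.13 on chromosome 16.

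Bins moved with their neighbours also within the groups. Over 24 libraries, deviations from the group mean had a median Pearson correlation of 0.49 between 205 pairs of neighbouring bins, 0.26 between other bins of 1 chromosome and 0.07 between bins of different chromosomes. Without the pair that stood apart the medians were 0.41, 0.22 and 0.09. Base composition went with the WT difference in part: its Spearman correlation with the median transcript GC content of a bin was 0.23 over 224 bins and 0.41 over the 167 bins outside chromosomes 6, 8, 10, 12 and 15, and 0.08 and 0.17 in SETD2 KD. In single VE822 libraries the correlation of bin value and GC content ranged from -0.47 (SETD2 KD VE822 3) to 0.53 (SETD2 KD VE822 2), and in untreated ones from -0.33 to 0.16. These points share libraries and genes, and the part of base composition in the differences was not tested beyond the adjustment given above.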

How the data were processed

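RNA sequencing values of 24 mouse tumour libraries were used as deposited; the human libraries of the series were not used here. The authors deposited rlog values on a log2 scale, 1 row per Ensembl gene, made over all 24 libraries. Per the submitters' processing notes, the tools were TopHat, HTSeq, FastQC and DESeq2 with build GRCm38; their versions, the strand setting and the annotation are not stated, so overlapping genes are uncertain. Of 46078 rows, 16906 were 0 throughout and 935 matched no gene of GENCODE vM21. The bins, the chromosomes described first and the gene lists were chosen with earlier results of these data known.

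Bin values were compared with limma 3.58.1 (R 4.3.3; 4 group means over 24 libraries, empirical Bayes), with p-values adjusted by Benjamini and Hochberg over the 224 bins of each of 5 comparisons and a threshold of 0.05. The 15916 genes whose mean rlog reached 3 were fitted likewise with a mean-variance trend and adjusted over all of them. Values of lower-level genes were compared by exact two-sided permutation of libraries, whose smallest p is 0.000583 for 7 against 6 and 0.00216 for 6 against 5. Named genes are the 3 of highest mean, the 3 of largest change in WT and the measured genes of a cancer list on each of the first 5 chromosomes. Alternatives (other gene and bin filters, scaling, covariates, libraries left out) are given at the end. The scripts were checked on simulated data with known changes. Numbers in the titles of the mouse libraries are not shared between groups and pair nothing.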

Additional observations from a re-analysis of the deposited data

Results flagged for a closer look

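Single libraries far from the rest of their group were sought in 14 chromosomes or chromosome parts, by the gap to the nearest library relative to the range of the group (Dixon's criterion). Of 56 pairs of a region and a group, 11 met it. Chance gives about 1 in 20 groups for regions chosen without the values; several of these regions and borders were chosen after the values were seen, so that this rate is no measure for them. Of the 11, 9 concern WT untreated 1 or SETD2 KD VE822 4.

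In WT untreated 1, chromosome 6 was at -0.15 (other libraries of the group -0.06 to -0.03), chromosome 8 below 80 Mb at 0.17 (0.01 to 0.05), chromosome 14 from 50 Mb at -0.12 (-0.01 to 0.01), chromosome 15 below 70 Mb at -0.054 (0.01 to 0.06), chromosome 16 at -0.062 (0.02 to 0.05) and chromosome 18 below 50 Mb at -0.10 (-0.01 to 0.03). In SETD2 KD VE822 4, chromosome 6 was at -0.21 (0.03 to 0.10), chromosome 10 at 0.13 (-0.14 to -0.10) and chromosome 14 from 50 Mb at -0.27 (0.02 to 0.06).

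The remaining values lay nearer to the next library of their group. WT untreated 5 had 0.10 on chromosome 10 (0.11 to 0.12), and SETD2 KD untreated 3 had 0.10 on chromosome 15 below 70 Mb (0.03 to 0.05).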

How the results depend on the processing

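The difference of each of chromosomes 6, 8, 10, 12 and 15 kept its sign in both labels with a lowest mean rlog of 6 or 10, means over genes, the library median at 0, the GC adjustment, no muscle-rich libraries, no libraries that stood apart and each library left out; in WT the differences of chromosome 10 were -0.26 to -0.22 and of chromosome 6 0.11 to 0.17. Relative to their size the SETD2 KD values moved more: chromosome 6 was 0.025 to 0.10 and chromosome 12 -0.04 to -0.0072, the latter with the library median at 0. The tissue list covariates were not among these settings for whole chromosomes. With them, the median bin difference in SETD2 KD was 0.02 on chromosome 6 (bins -0.08 to 0.10) and -0.0005 on chromosome 12 (-0.03 to 0.08). No paired analysis was possible because the groups share no replicate numbers in the labels. Bins called in WT (125) were 36 with tissue list covariates and 82 without muscle-rich libraries, and 106 to 138 when each library was left out in turn. In SETD2 KD (38) they were 67 with bins of 5 Mb, 24 with only the groups compared, 84 with library weights, 21 with tissue list covariates, 20 in the exact permutation test and, in settings chosen after seeing the data, 78 without the pair that stood apart and 61 after GC and length adjustment; leaving out each library gave 28 to 77, the latter without SETD2 KD VE822 4. Between the labels without treatment (0), library weights gave 1 and leaving out libraries 0 to 0. Between the labels under VE822 (10), a lowest mean rlog of 6, at least 20 genes and the GC adjustment each gave 6, bins of 5 Mb and the library median at 0 gave 4, shifted bins 16, means over genes 3, covariates 17, no muscle-rich libraries 1, the groups compared alone and the exact permutation test 0, and leaving out libraries 1 to 32. The interaction (0) gave 1 with a lowest mean rlog of 10 or the GC adjustment, 5 with shifted bins, 8 with library weights, and 0 to 6 when libraries were left out. Genes called inside the bins ranged from 3132 to 4036 in WT and 1741 to 2859 in SETD2 KD, and bins called on lower-level genes from 49 to 72 and 24 to 47, where fewer libraries also leave fewer relabellings. For WT, the bin on chromosome 2 from 90 to 100 Mb had 0.0143 with means over genes, and that on chromosome 6 from 90 to 100 Mb -2.5e-05 with covariates, both of opposite sign. The causes were not tested. The unknown depth of the rlog values limits what can be said of genes of low level.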
